A study of Mus musculus with 11 samples.

Results

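In B16-OVA mouse melanoma cells 10 genes were followed: the 2 genes for cytosolic Hsp90 and 8 genes for proteins that work with it. The 10 members were given by a list of gene symbols with no threshold on their values, drawn up with earlier results of these data known, and all 10 were found among the 54686 entries of the deposited expression table. B16-OVA cells derive from a C57BL/6J mouse melanoma and carry ovalbumin as a model antigen. The transfected siRNA was either a control or a pool that targets the Hippo pathway co-activators YAP and TAZ, and all groups therefore went through transfection. Heated cells were held at 45 °C for 1 h, starting 48 h after transfection, and were harvested after 6 h of recovery. The 4 groups were: control siRNA unheated (n = 3), control siRNA heated (n = 2, replicates 1 and 3; replicate 2 was not analysed here), YAP/TAZ siRNA unheated (n = 3) and YAP/TAZ siRNA heated (n = 3). The study's title sets the question, which is how YAP and TAZ act on the transcriptome of heat-shocked cells.

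Hsp90 is an ATP-driven chaperone that folds and stabilizes kinases, steroid receptors and many other client proteins, and it is abundant in unstressed cells. Hsp90aa1 encodes the form known to be inducible by stress and Hsp90ab1 the form known to be constitutive. Co-chaperones bind at set steps of the Hsp90 cycle: some bring clients or Hsp70, some speed up or slow down ATP hydrolysis, and some hold the closed state. Heat shock factor 1 drives heat-induced transcription through heat shock elements, which are runs of the unit GAA alternating with its reverse complement TTC.

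Values are FPKM, fragment densities scaled by gene length and library depth, so levels of different genes can be set side by side. The YAP/TAZ siRNA lowered its targets: Yap1 was at 5.79 to 15.6 FPKM in the unheated control libraries and 2.54 to 3.02 in the unheated libraries of the YAP/TAZ siRNA, and Wwtr1, which encodes TAZ, at 5.37 to 8.20 and 1.65 to 1.83. All 10 melanocyte lineage markers were detected, and the summed level of the markers was 6898 to 9024 FPKM over the libraries. Of the fibroblast, macrophage, lymphocyte, endothelial and keratinocyte markers few reached 1 FPKM, with summed levels of at most 6.77 FPKM. These sums were higher in the heated control libraries than in the unheated ones for macrophage markers (6.33 to 6.77 against 2.35 to 2.64), lymphocyte markers (1.92 in both against 0.12 to 0.32), endothelial markers (1.28 to 1.63 against 0.15 to 0.29) and keratinocyte markers (0.48 to 0.56 against 0.068 to 0.11), and lower for fibroblast markers (1.79 to 1.82 against 3.20 to 3.53). Single genes made up most of each rise. Among macrophage markers Cd68 was at 3.63 to 4.83 FPKM heated against 0.59 to 0.97 unheated. Among lymphocyte markers Cd79a was at 1.82 to 1.87 against 0.12 to 0.31. Pecam1 (endothelial) was at 0.92 to 1.08 against 0.0035 to 0.054, and Cdh1 (keratinocyte) at 0.40 to 0.41 against 0.031 to 0.069. In the macrophage, lymphocyte, endothelial and keratinocyte lists 3, 4, 2 and 2 markers were at 0 in every library. The heated control libraries also had more entries above 0, 23173 to 23242 against 20000 to 20365 in the unheated ones. The part of these differences in the results was not tested. In bulk RNA a change in cell makeup cannot be told apart from a change within the cells. Depth, estimated from the smallest steps between FPKM values, was 30.6 M to 44.2 M fragments per library.

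Heat shock units were looked for in the RefSeq promoter windows of the mouse build GRCm38.p6, which run from 250 bases before to 50 bases after each transcription start. Windows were matched for 8 of the 10 members; those of Hsp90aa1 and Hsp90ab1 were not matched. The windows of 3 members held at least a pair of adjacent heat shock units, which is the smallest motif counted here (GAANNTTC or TTCNNGAA, either strand). Of these 3, Chordc1 rose with heat under control siRNA, and Cdc37 and Fkbp4 did not pass the test there, as given below. Among the matched members whose windows held none, Ahsa1, Stip1 and Ptges3 rose, and Cacybp and Ahsa2 did not pass the test. A link between the motif and the heat response was not tested. The stretches are shown with the units in capitals, 5′ to 3′ on the gene's own strand.
Chordc1: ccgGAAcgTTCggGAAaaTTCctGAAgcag
Cdc37: tcggcgggaacTTCcaGAAggcctcaccac
Fkbp4: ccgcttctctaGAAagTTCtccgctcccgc
The Chordc1 stretch lies at chr9:18292260-18292289 on the plus strand, spans the RefSeq transcription start from position -7 to 23, and holds 5 units in a row. The Cdc37 stretch is at chr9:21150086-21150115 on the minus strand, positions -181 to -152, outside annotated exons. The Fkbp4 stretch is at chr6:128438789-128438818 on the minus strand, positions -162 to -133, inside an exon of the antisense transcript Gm10069. The longer motif of 3 units (GAANNTTCNNGAA or TTCNNGAANNTTC) was found in Chordc1 alone among the 8 matched members and in 0.603% of all 32851 windows. The pair of units is common, occurring in 15.1% of windows. In a list of inducible heat shock reference genes the 3-unit motif was found in 3 of 9 matched genes (Hspd1, Hspe1 and Hsph1) and the pair in 7 of 9. The Hspd1 and Hspe1 hits lie at the same bases (chr1:55088059-55088076), so the same site was counted for both genes. A gene with several windows was counted if any of them held the motif, whereas the percentages are of windows. The core TEAD motif GGAATG, which the DNA-binding partners of YAP and TAZ recognize, was found in 0 of the 8 members' windows and in 14.7% of all windows. A match of letters does not show binding, and a window without a match says only that these letters are not in that window.

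Heat raised Hsp90 and part of its co-chaperones under both siRNAs. Under control siRNA, 6 of the 10 members rose, against a background of 12.4% of all 12626 tested genes called higher. Hsp90aa1, Hsp90ab1, Chordc1, Ptges3, Ahsa1 and Stip1 rose, and Cacybp, Cdc37, Fkbp4 and Ahsa2 did not pass the test (limma, Benjamini-Hochberg adjusted over all tested genes, called below 0.05). Under YAP/TAZ siRNA, 8 of 10 members rose, against 18.6% of all genes called higher. There Cdc37 and Cacybp joined the called genes, and Ahsa2 and Fkbp4 did not pass the test. The median log2 change of the members was 0.41 with the control siRNA and 0.56 with YAP/TAZ siRNA, beside -0.16 and -0.086 over all tested genes. Over all genes, 1560 were called higher and 4654 lower with heat under control siRNA, which became 2838 and 2732 after median-of-ratios scaling (a shift of the median to 0.0075) and 2337 and 3252 after quantile normalization. Under YAP/TAZ siRNA the split was 2347 higher and 3999 lower as deposited, 1417 and 5794 after scaling to the same summed FPKM, and 2729 and 2871 after quantile normalization. The members called with heat under each siRNA kept their calls under all 3 scalings.

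**Figure D1:**
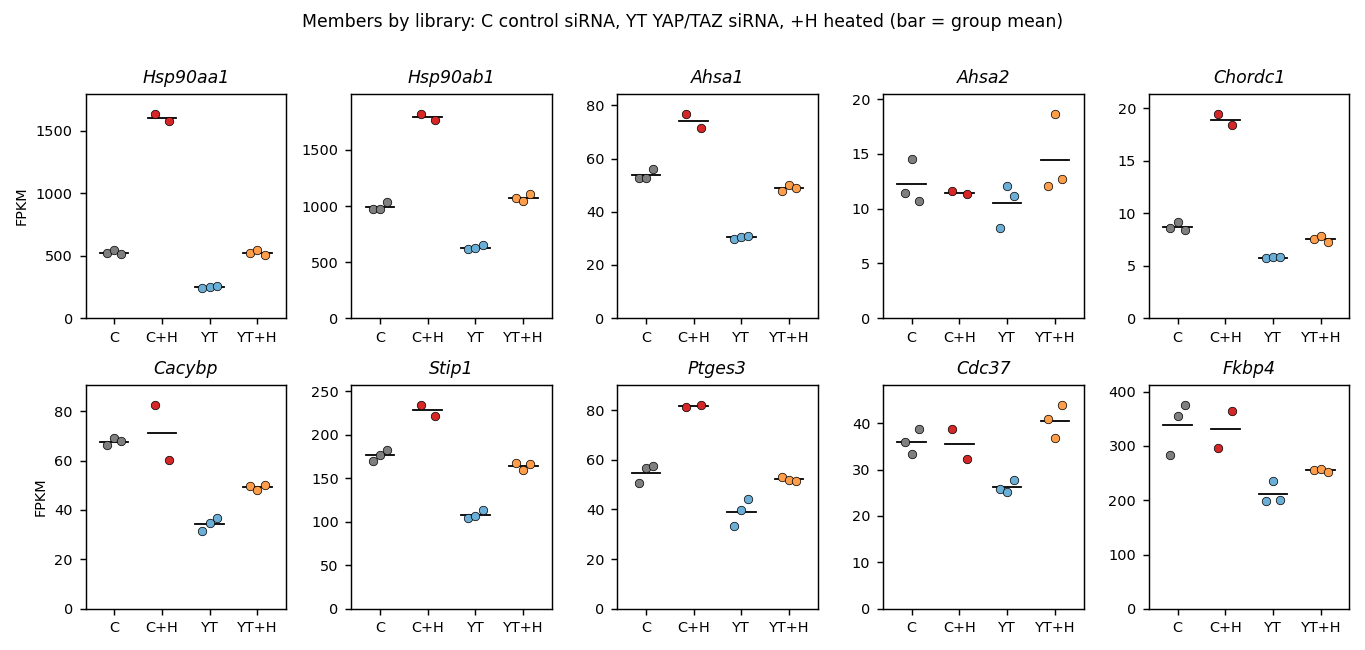
FPKM of each member in each library (points) with the group mean (bar), for control siRNA (C), heated control siRNA (C+H), YAP/TAZ siRNA (YT) and heated YAP/TAZ siRNA (YT+H); each panel has its own linear axis from 0. Hsp90aa1 in the heated control libraries stands at 1574 and 1631 FPKM, above every other library, while Ahsa2 and Cdc37 show overlapping heated and unheated control libraries.

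YAP/TAZ siRNA lowered nearly the whole set. Without heat, 9 of the 10 members were called lower, all but Ahsa2, against 21.9% of all genes called lower. After heat, 8 of 10 were called lower, all but Cdc37 and Ahsa2, against 17.9% of all genes. The median log2 change of the members was -0.66 without heat and -0.55 after heat, beside 0.023 and 0.13 over all genes. After heat 4589 genes were called higher and 2266 lower as deposited, 3222 and 3257 after median-of-ratios scaling, and 3707 and 2941 after quantile normalization. The 9 calls without heat held in every alternative listed in the closing section. After heat the call of Fkbp4 did not hold, as given with its values below.

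**Figure D2:**
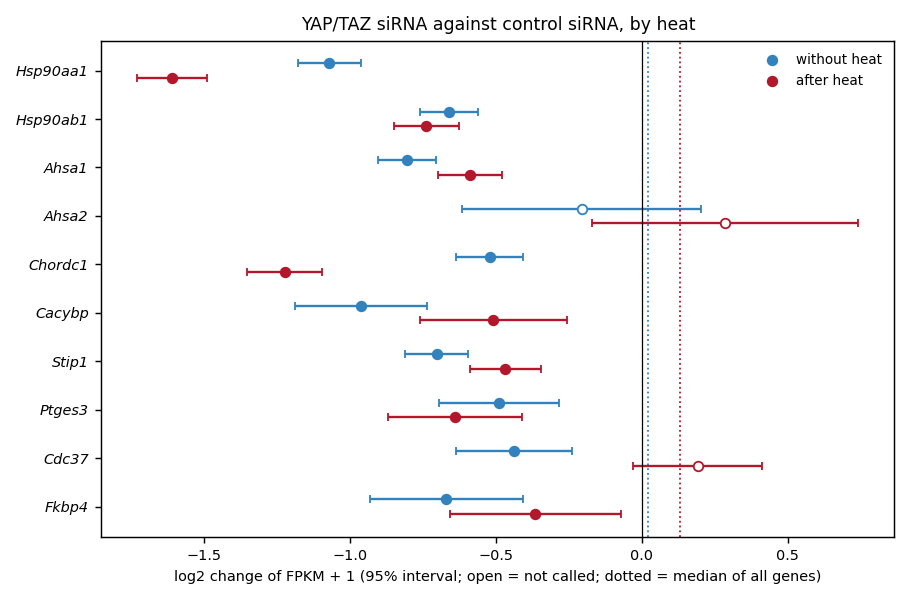
Log2 change of FPKM + 1 between YAP/TAZ and control siRNA, without heat (blue) and after heat (red), with 95% intervals; filled points passed the test, open points did not, and dotted lines mark the median of all tested genes. All 10 members lie below 0 without heat, Ahsa2 as the one that did not pass the test, and Hsp90aa1 at -1.61 and Chordc1 at -1.22 are the lowest after heat.

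Hsp90aa1 (ENSMUSG00000021270; GRCm38 chromosome 12, 110690605 to 110702728, minus strand) was at 520, 544 and 512 FPKM in the unheated control libraries and 1631 and 1574 in the heated control libraries. With YAP/TAZ siRNA the values were 240, 252 and 258 FPKM unheated and 521, 549 and 507 heated. Heated libraries lay above unheated ones under both siRNAs, and the heated YAP/TAZ siRNA libraries overlapped the unheated control libraries. Its level rose by 1.61 ± 0.05 (SE) on the log2 scale with heat under control siRNA (limma adjusted p = 1.1e-07) and by 1.07 ± 0.05 under YAP/TAZ siRNA (adjusted p = 1.6e-06). The interaction, the heat response under YAP/TAZ siRNA minus the response under control siRNA, was -0.54 ± 0.07 (95% interval -0.70 to -0.38, adjusted p = 4.9e-04). The gain in mean level was 1077 FPKM under control siRNA and 276 FPKM under YAP/TAZ siRNA. The siRNA lowered Hsp90aa1 by a log2 difference of -1.07 without heat (adjusted p = 3.7e-07) and -1.61 after heat (adjusted p = 9.7e-08). Processed pseudogenes that share at least 95% of their letters with Hsp90aa1 were counted as entries of their own: Gm5844 at group means of 28.8, 90.0, 13.7 and 22.8 FPKM, and Gm12346 at 24.7, 69.2, 8.78 and 17.4, in the order control, heated control, YAP/TAZ and heated YAP/TAZ. With the copies added to Hsp90aa1 the interaction was -0.55 (adjusted p = 0.00085).

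Hsp90ab1 (ENSMUSG00000023944; chromosome 17, 45567775 to 45573271, minus strand) was the most abundant member in every group. It was at 977, 974 and 1035 FPKM in the unheated control libraries, 1817 and 1770 in the heated control libraries, 613, 626 and 649 in the unheated YAP/TAZ siRNA libraries, and 1069, 1049 and 1109 in the heated ones. The groups did not overlap with heat under either siRNA, nor between siRNAs at either heat state. Heat raised it by 0.85 ± 0.05 under control siRNA (limma adjusted p = 1.7e-06) and by 0.77 ± 0.04 under YAP/TAZ siRNA (adjusted p = 4.7e-06). The difference between those responses did not pass the test (-0.077, 95% interval -0.23 to 0.073, adjusted p = 0.40), although it did after each of the 3 scalings, at -0.17, -0.22 and -0.34. The siRNA lowered it by -0.66 without heat and -0.74 after heat.

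The balance between the cytosolic Hsp90 genes moved with both factors. Hsp90aa1 made up 34.6% ± 1.39 (SD, n = 3) of the summed FPKM of the 2 genes in unheated control libraries and 47.2% ± 0.155 (n = 2) in heated control libraries. With YAP/TAZ siRNA it made up 28.4% ± 0.290 (n = 3) and 32.8% ± 1.50 (n = 3). The share was 8.51 points higher with heat, and 10.3 points lower with YAP/TAZ siRNA, each with the other factor as strata (exact permutation test, two-sided, p = 0.005, the smallest p that 200 arrangements allow). Because the share is taken within a library, it does not depend on the scaling of the libraries. The heat difference was 12.6 points under control siRNA and 4.40 points under YAP/TAZ siRNA; that contrast of differences was not tested for the share.

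**Figure D3:**
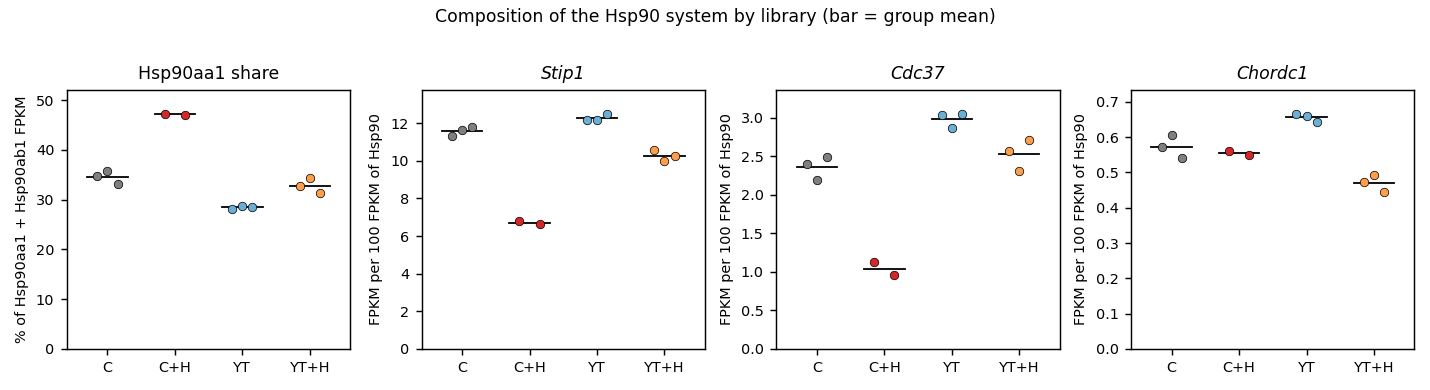
Hsp90aa1 as a percent of the summed Hsp90aa1 and Hsp90ab1 FPKM, and FPKM of Stip1, Cdc37 and Chordc1 per 100 FPKM of cytosolic Hsp90, in each library (points) with group means (bars). The heated control libraries hold the highest Hsp90aa1 share, 47.1 and 47.3%, and the lowest Cdc37 level, 0.963 and 1.12 per 100 FPKM.

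Chordc1 encodes a CHORD domain protein that binds Hsp90, and its window carries the 5-unit stretch shown above. The gene (ENSMUSG00000001774; chromosome 9, 18292125 to 18317442, plus strand) was at 8.58, 9.20 and 8.37 FPKM unheated and 19.4 and 18.4 heated under control siRNA. Cells with YAP/TAZ siRNA had 5.69, 5.79 and 5.83 unheated and 7.52, 7.86 and 7.20 heated. The heated YAP/TAZ siRNA libraries all lay below the unheated control libraries. Heat raised it by 1.03 ± 0.06 under control siRNA (limma adjusted p = 1.2e-06) and by 0.33 ± 0.05 under YAP/TAZ siRNA (adjusted p = 7.1e-04). The interaction was -0.70 ± 0.08 (adjusted p = 1.7e-04), the largest loss of heat response among the members. In mean level the gene gained 10.2 FPKM when control cells were heated and 1.76 FPKM when cells with YAP/TAZ siRNA were. It was lower with the siRNA by -0.52 without heat and -1.22 after heat.

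Cacybp, a protein that links Siah ubiquitin ligases to Skp1 and carries an SGS domain, did not pass the heat test under control siRNA. Its level in control cells was 66.2, 69.0 and 67.8 FPKM before and 82.5 and 60.1 after heat, and 31.6, 34.6 and 36.7 before and 49.6, 48.1 and 50.1 after heat with YAP/TAZ siRNA. The heated control libraries lay on both sides of the unheated ones. The log2 change was 0.057 (95% interval -0.20 to 0.31) with both heated libraries and 0.28 (limma adjusted p = 0.021) with replicate 3 left out, and -0.17 with replicate 1 left out. Under YAP/TAZ siRNA it rose by 0.51 ± 0.10 (adjusted p = 0.0027). Unheated levels were lower with the siRNA by -0.96 (adjusted p = 4.8e-05).

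Ahsa1 and Ahsa2 encode related proteins of the ATPase activator family. Ahsa1, which stimulates Hsp90's ATPase, was at 52.7, 52.6 and 55.9 FPKM in control cells before and 76.6 and 71.3 after heat, and at 29.7, 30.4 and 31.1 before and 47.8, 50.1 and 48.8 after heat with YAP/TAZ siRNA. No heated library overlapped an unheated one of the same siRNA. It rose by 0.45 ± 0.05 under control siRNA (limma adjusted p = 6.3e-05) and by 0.67 ± 0.04 under YAP/TAZ siRNA (adjusted p = 9.7e-06). Ahsa2, its relative, was at 11.4, 14.5 and 10.7 FPKM in control cells before and 11.6 and 11.3 after heat, and at 8.26, 12.1 and 11.2 before and 12.0, 18.6 and 12.7 after heat with YAP/TAZ siRNA. It passed the limma test in none of the 5 comparisons, with log2 changes between -0.21 and 0.49; its heat change under YAP/TAZ siRNA had an unadjusted p of 0.047 and was called after median-of-ratios scaling (0.48, adjusted p = 0.049). Its gene (chromosome 11, 23487882 to 23498030) shares 2137 of its 4532 exon bases, 47.2%, with exons of Usp34 on the opposite strand. Whether the counting used strand is not given in the sources used here, and the named library kit does not mark strand, so reads from that stretch could belong to either gene.

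Stip1, Fkbp4, Ptges3 and Cdc37 each serve a different step. Stip1 encodes the adaptor that joins Hsp70 to Hsp90, and it was at 170, 176 and 183 FPKM in control cells before and 234 and 221 after heat, and at 104, 107 and 113 before and 168, 160 and 166 after heat with YAP/TAZ siRNA. Every heated library lay above the unheated libraries of its siRNA. It rose by 0.37 ± 0.05 under control siRNA (limma adjusted p = 4.0e-04) and by 0.60 ± 0.05 under YAP/TAZ siRNA (adjusted p = 2.6e-05). In mean level the gain was 51.5 FPKM in control cells and 56.5 FPKM in cells with YAP/TAZ siRNA. Fkbp4 encodes the immunophilin FKBP52 of steroid receptor complexes. It was at 284, 354 and 376 FPKM in control cells before and 296 and 365 after heat, and at 198, 235 and 201 before and 256, 257 and 253 after heat with YAP/TAZ siRNA. Heated and unheated control libraries overlapped, and the heated YAP/TAZ siRNA libraries lay above the unheated ones. The heat change under YAP/TAZ siRNA was 0.28 ± 0.12 and did not pass the test (limma adjusted p = 0.074). It was called after median-of-ratios scaling (0.35, adjusted p = 0.030), in a fit of the 2 groups alone (adjusted p = 0.030), and without unheated control replicate 1 (adjusted p = 0.034) or unheated YAP/TAZ siRNA replicate 2 (0.36, adjusted p = 0.047), and had the other sign with quantile normalization (-0.19). With the siRNA it was lower by -0.67 without heat (adjusted p = 0.0011) and -0.36 after heat (adjusted p = 0.039), a call that ended when heated control replicate 3 (-0.21), or any 1 of the heated YAP/TAZ siRNA libraries, was left out.

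Ptges3 encodes p23, which stabilizes the closed, ATP-bound form of Hsp90. It was at 50.6, 56.6 and 57.4 FPKM in control cells before and 81.3 and 82.1 after heat, and at 33.2, 39.7 and 44.1 before and 53.2, 51.7 and 51.4 after heat with YAP/TAZ siRNA. The heated libraries lay above the unheated ones under both siRNAs. Heat raised it by 0.57 ± 0.10 under control siRNA and by 0.42 ± 0.09 under YAP/TAZ siRNA (limma adjusted p = 0.0014 and 0.0047). A processed pseudogene, Ptges3-ps (chromosome 6, 85843980 to 85844459), is letter for letter the same as bases 332 to 811 of the 2000-base longest Ptges3 transcript, so reads from that stretch cannot be assigned to either locus. Its first 60 bases show the identity, beginning with the ATG.
Ptges3-ps, chr6:85843980-85844039: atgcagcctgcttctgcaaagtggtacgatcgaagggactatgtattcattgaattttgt
The entry for the pseudogene had group means of 194, 227, 122 and 137 FPKM in the order used above, higher than Ptges3 itself in every group. Summed with the pseudogene, the heat response of Ptges3 was 0.43 and 0.32 with the control and the YAP/TAZ siRNA, and both remained called.

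Cdc37 encodes the adaptor that brings protein kinases to Hsp90. It was at 35.9, 33.4 and 38.6 FPKM in control cells before and 38.7 and 32.2 after heat, and at 25.9, 25.2 and 27.7 before and 40.9, 36.8 and 43.9 after heat with YAP/TAZ siRNA. Heat left the control libraries overlapping, and moved all 3 heated YAP/TAZ siRNA libraries above the unheated ones. The heat change was -0.025 (95% interval -0.25 to 0.20) in control cells and 0.61 ± 0.09 with YAP/TAZ siRNA (limma adjusted p = 5.6e-04). The interaction was 0.63 ± 0.13 (adjusted p = 0.0054), and it held its call under every alternative. After heat the siRNA groups differed by 0.19 (95% interval -0.030 to 0.41), which did not pass the test.

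The heat responses of 6 members differed between the siRNAs, as did those of 37.9% of all genes. Against backgrounds of 24.6% of genes called with a larger response and 13.4% with a smaller response under YAP/TAZ siRNA, 4 members had a larger response (Cdc37, Cacybp, Stip1 and Ahsa1) and 2 a smaller one (Chordc1 and Hsp90aa1). The interactions of Ahsa1 (0.22, limma adjusted p = 0.029), Stip1 (0.23, adjusted p = 0.030) and Cacybp (0.45, adjusted p = 0.040) lost their calls under all 3 scalings, and Stip1 changed sign to -0.033 with quantile normalization. They also ended when 1 library was left out: 6 of the 11 libraries for Ahsa1, 7 for Stip1 and 9 for Cacybp each ended the call alone. The all-gene median of the interaction was 0.11 as deposited. Over all genes 3102 were called with a larger response and 1689 with a smaller one, or 1862 and 2270 after median-of-ratios scaling. The calls for Chordc1, Hsp90aa1 and Cdc37 held in each of these. Hsp90ab1, not called as deposited, was called with a smaller response after each of the 3 scalings, as given above.

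**Figure D4:**
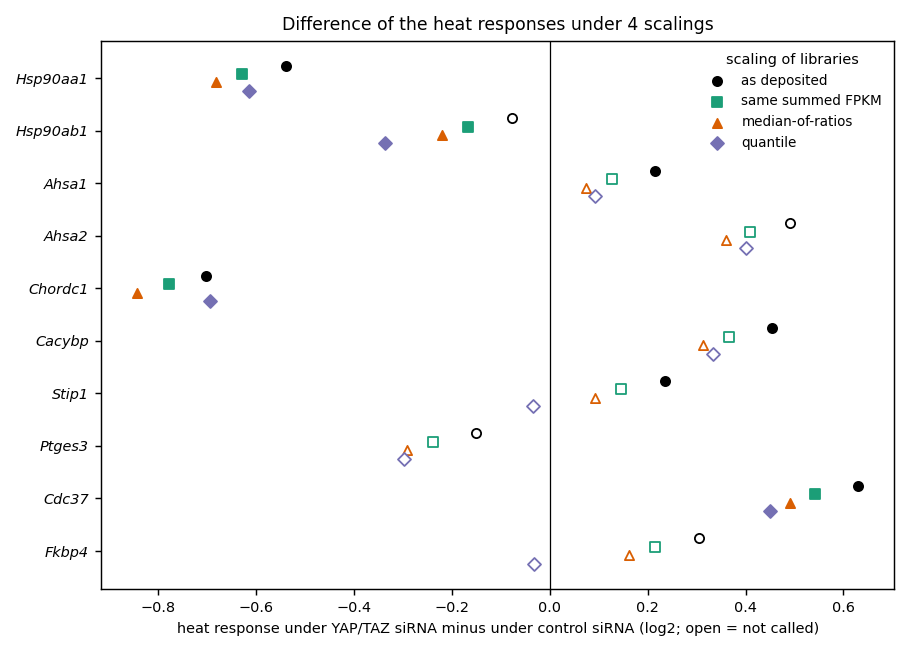
Heat response under YAP/TAZ siRNA minus the response under control siRNA (log2) for each member under 4 ways of scaling the libraries; filled symbols passed the test. Hsp90aa1 and Chordc1 lie left of 0 and Cdc37 right of 0 under all 4, while Ahsa1, Cacybp and Stip1 are filled only as deposited. Hsp90ab1 is open as deposited and filled under the other scalings.

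**Figure D5:**
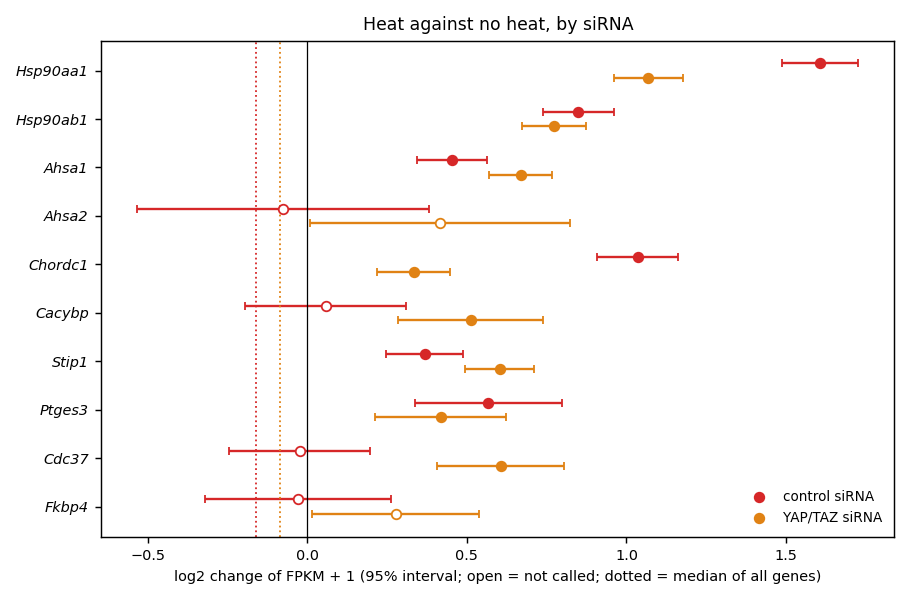
Log2 change of FPKM + 1 with heat for each member under control siRNA (red) and YAP/TAZ siRNA (orange), with 95% intervals; open points did not pass the test and dotted lines mark the medians of all tested genes. Hsp90aa1 and Chordc1 show the widest gap with the control siRNA higher, and Cdc37 the widest gap the other way.

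Co-chaperone RNA per unit of Hsp90 RNA fell with heat. All 8 ratios to the summed Hsp90aa1 and Hsp90ab1 FPKM were lower with heat (exact permutation test, two-sided, 200 arrangements, adjusted p over the 8 from 0.0067 to 0.030). The log2 differences under control and YAP/TAZ siRNA were -0.70 and -0.18 for Ahsa1, and -1.24 and -0.42 (overlapping libraries) for Ahsa2. They were -1.10 and -0.34 for Cacybp, -0.58 and -0.44 for Ptges3, and -1.19 and -0.59 for Fkbp4. The heat differences within each siRNA were not tested. Stip1 went from 11.6 ± 0.233 (SD, n = 3) to 6.71 ± 0.119 (n = 2) FPKM per 100 FPKM of Hsp90 under control siRNA and from 12.3 ± 0.197 (n = 3) to 10.3 ± 0.282 (n = 3) under YAP/TAZ siRNA. Cdc37 went from 2.37 ± 0.153 to 1.04 ± 0.112 under control siRNA and from 2.99 ± 0.103 to 2.53 ± 0.209 under YAP/TAZ siRNA. The Chordc1 ratio in control cells was 0.573 ± 0.0324 before and 0.556 ± 0.00846 after heat, with overlapping libraries, and it went from 0.657 ± 0.0125 to 0.470 ± 0.0232 with YAP/TAZ siRNA. The Chordc1 ratio to the summed Hsp90 was at the threshold (exact permutation adjusted p = 0.050) without unheated control replicate 1 or 2. Taken against Hsp90ab1 alone, its log2 ratio was 0.27 higher with heat in control cells and 0.39 lower with heat in cells with YAP/TAZ siRNA, without overlap in either, and the pooled heat difference did not pass the test (adjusted p = 0.60). Pooled over the heat states, 5 ratios were higher with the siRNA (Ahsa2, Stip1, Ptges3 and Cdc37 at an exact permutation adjusted p of 0.010, Fkbp4 at 0.048). Of these, Stip1, Ptges3 and Fkbp4 did not pass against Hsp90ab1 alone. The log2 differences without and after heat were 0.57 and 1.39 for Ahsa2, 0.084 and 0.62 for Stip1, and 0.29 and 0.44 for Ptges3. They were 0.34 and 1.28 for Cdc37, and 0.12 (overlapping libraries) and 0.72 for Fkbp4. The ratios not called had opposite signs in the heat states: Ahsa1 (-0.032, overlapping, and 0.49), Cacybp (-0.19 and 0.57) and Chordc1 (0.20 and -0.24). The differences within heat states were not tested. The Fkbp4 call also ended without any 1 of 7 libraries (unheated control replicate 1, both heated controls, unheated YAP/TAZ replicate 2 and the 3 heated YAP/TAZ libraries). The 10 members together made up 0.702 to 0.737% of all FPKM in unheated control libraries, 1.27 to 1.31% in heated control libraries, 0.417 to 0.449% before heat with YAP/TAZ siRNA, and 0.624 to 0.654% after heat with it.

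A direct look at heated YAP/TAZ siRNA cells beside unheated control cells was added after the values had been seen. Hsp90aa1 did not differ beyond the spread (-0.00015 on the log2 scale, 95% interval -0.11 to 0.11), and Hsp90ab1 did not pass the test (0.11, 95% interval 0.012 to 0.21, limma adjusted p = 0.058). Cacybp (-0.45), Fkbp4 (-0.39), Chordc1 (-0.19) and Ahsa1 (-0.13) were called lower, 4 of 10 members against 29.4% of all genes called lower. This comparison depended on scaling: with quantile normalization Hsp90aa1 was at -0.35 and Hsp90ab1 at -0.36, both called lower, and after scaling to the same summed FPKM Hsp90aa1 was called lower at -0.16. It depended on single libraries as well, with 2 to 4 members called lower when 1 was left out. The Ahsa1 call ended without unheated control replicate 3 or heated YAP/TAZ siRNA replicate 1 or 3 (adjusted p up to 0.097). The Fkbp4 call ended without unheated control replicate 2 or 3 (up to 0.065). Over all 22 alternatives the Ahsa1 call ended in 4 (limma adjusted p up to 0.16) and the Chordc1 call in 1 (adjusted p = 0.16). Hsp90ab1 was called higher without unheated control replicate 3 (0.14, adjusted p = 0.039), after median-of-ratios scaling (0.17, adjusted p = 0.018) and with a filter of 5 FPKM (adjusted p = 0.043).

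Genes were ranked by how closely their levels followed Hsp90aa1 over the 11 libraries, among 12625 genes compared. Pseudogenes and entries with no symbol, or with a predicted-gene or clone name, were passed over, so copies such as Gm5844 could not appear. The first 5 of the rest were Hsph1 (Pearson r = 0.996), St13 (0.995), Cryab (0.989), Hsp90ab1 (0.986) and Ccn1 (0.984). For Hsp90ab1 the first 5 were Hsph1 (0.987), St13 (0.987), Hsp90aa1 (0.986), Cltb (0.983) and Dnaja1 (0.979). These values describe libraries that share groups and are not independent points.

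Genes of the Hsp90 system outside the 10 members were counted from lists. Of 31 tested further co-chaperones, 4 rose and 10 fell with heat under control siRNA, where 12.4% of all genes rose and 36.9% fell, with a median log2 change of -0.11 beside -0.16 over all genes. These counts are near the shares over all genes. Under YAP/TAZ siRNA 12 rose and 7 fell, where 18.6% of all genes rose and 31.7% fell, with a median of 0.077 beside -0.086. These splits moved with the scaling: after scaling to the same summed FPKM the YAP/TAZ siRNA count was 7 higher and 10 lower, and after median-of-ratios scaling the control count was 8 and 9. St13, the Hsp70-interacting protein Hip, rose by 0.63 and 0.42 with the control and the YAP/TAZ siRNA, and Nasp, a histone chaperone, fell by 1.63 under control siRNA. Without heat, 15 of the 31 were called lower with YAP/TAZ siRNA and 5 higher, where 21.9% of all genes were lower and 27.1% higher, with a median of -0.20 beside 0.023, and the 3 scalings gave 14 or 15 lower and 5 or 6 higher. Ruvbl1 and Ruvbl2, ATPases of the R2TP complex, were among the lower ones at -1.03 and -0.81. After heat, 10 of the 31 were called higher with YAP/TAZ siRNA and 7 lower, where 4589 of 12626 genes were higher and 2266 lower. The median was 0.043 beside 0.13, and the 3 scalings gave 5 to 8 higher and 7 to 9 lower. Ruvbl1 (-0.012) and Ruvbl2 (0.030) did not pass the test after heat.

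Hsp90 forms of other compartments were also measured. Hsp90b1 of the endoplasmic reticulum passed the limma test in none of the 5 comparisons as deposited (the smallest unadjusted p was 0.043), and its heat change under YAP/TAZ siRNA, 0.31, was called after median-of-ratios scaling (0.38, adjusted p = 0.036) and quantile normalization (0.43, adjusted p = 0.026). Mitochondrial Trap1 rose by 0.31 with heat under YAP/TAZ siRNA (0.15 after scaling to the same summed FPKM, still called). Under control siRNA its heat change did not pass the test as deposited (0.060) or after scaling to the same summed FPKM (-0.014). That change was called after median-of-ratios scaling (0.27, limma adjusted p = 0.0034). As deposited the Trap1 interaction (0.26) was called, and Trap1 was lower with YAP/TAZ siRNA without heat (-0.16). Of 28 tested client genes, 1 rose and 11 fell with heat under control siRNA, with a median of -0.23 beside -0.16 over all genes. The count that fell is near the 36.9% of all genes that fell. After median-of-ratios scaling 4 clients were called higher and 5 lower. Erbb2, a receptor tyrosine kinase, fell by 1.16. Hsf1, which encodes heat shock factor 1, was lower with YAP/TAZ siRNA by -0.55 without heat (limma adjusted p = 2.9e-05). After heat it did not pass the test as deposited (-0.15, adjusted p = 0.063), and it was called lower after each of the 3 scalings, at -0.22, -0.28 and -0.24. Of the other genes in the heat shock factor list, Hsf4 and Hsbp1 went the other way. Without heat Hsf4 (0.48, limma adjusted p = 2.7e-04) and Hsbp1 (0.27, adjusted p = 0.0059) were called higher with the siRNA. After heat Hsf4 (0.63) and Hsbp1 (0.33) were called higher, and Hsf2 (-0.29) lower. Of the 10 reference heat shock genes, 9 rose with heat under each siRNA, where 12.4% (control) and 18.6% (YAP/TAZ) of all genes rose. After heat 9 were called lower with YAP/TAZ siRNA, where 17.9% of all genes were lower. Quantile normalization gave 8 higher and 1 lower with heat under control siRNA, and median-of-ratios scaling gave 10 higher. All 10 were called lower with the siRNA after heat under each of the 3 scalings.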

How the data were processed

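RNA sequencing measured 11 libraries, prepared from total RNA with the NEBNext Ultra RNA kit. The authors deposited 1 table of FPKM values with 1 column per library; per the submitters' processing notes Trimmomatic 0.36, HISAT2, SAMtools, StringTie and DESeq2 were used with GRCm38, with no settings or annotation release given. No counts were used, so no count model was run. The 12626 genes that reached 1 FPKM in 2 or more libraries were tested with limma 3.58.1 (R 4.3.3; empirical Bayes with trend) on log2(FPKM + 1), with all 4 groups in 1 fit and 7 residual degrees of freedom; fold changes on this scale understate the change of low genes. P-values were adjusted by Benjamini-Hochberg over all tested genes. The labels do not say whether replicates are separate cultures; the spread behind every p-value may be technical. Ratios within libraries were tested by exact permutation within strata. Near-identical copies (at least 95% of letters over at least 200 bases) were found with BLAST 2.17.0 in GENCODE transcripts, and promoter windows came from RefSeq. Scripts were tested on simulated data. The members and lists were chosen with earlier results of these data known. All members are named in every comparison; other genes are named by smallest p, up to 3 per direction from each list. Alternatives were other pseudocounts, filters, scalings, a replicate block, fits without trend or on the compared groups alone, ratios to Hsp90ab1 alone, and leaving out each library.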

Additional observations from a re-analysis of the deposited data

Results flagged for a closer look

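In all, 6 members showed heat responses that differed between the siRNAs by the test of the difference itself (limma interaction, adjusted over all tested genes), where 37.9% of all tested genes were called in either direction. The response under YAP/TAZ siRNA was smaller for Chordc1 (-0.70) and Hsp90aa1 (-0.54) on the log2 scale. It was larger for Cdc37 (0.63), Cacybp (0.45), Stip1 (0.23) and Ahsa1 (0.22). The calls of Cacybp, Stip1 and Ahsa1 ended under all 3 scalings, and leaving out a single library ended them for 9, 7 and 6 of the 11 libraries. No group has 4 or more libraries, so single libraries were not screened as outliers.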

How the results depend on the processing

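Without heat, the 9 members called lower with YAP/TAZ siRNA kept direction and call under every alternative, as did the 6 members called higher with heat under control siRNA and the 8 under YAP/TAZ siRNA. The Hsp90aa1 share kept its call throughout. The filters change the number of genes tested, so their counts cannot be set directly beside those from 12626 genes. With at least 5 FPKM required, 8186 genes were tested. Of these, 892 were called higher with heat under control siRNA and 2546 lower with heat under YAP/TAZ siRNA. A smaller heat response was called for 937, while 2171 were higher with the siRNA without heat and 1449 lower with it after heat. Without a filter, 29695 genes were tested. Of these, 4117 were called higher with heat under control siRNA, 3270 with a smaller heat response and 4407 lower with the siRNA after heat. Median-of-ratios scaling gave 2838 higher and 2732 lower genes with heat under control siRNA and 1862 with a larger heat response; scaling to the same summed FPKM gave 1417 higher with heat under YAP/TAZ siRNA. Members with a larger heat response under YAP/TAZ siRNA numbered 1 under each of the 3 scalings, and 1 to 4 when single libraries were left out. The calls of Ahsa1, Stip1 and Cacybp were the ones lost. Hsp90ab1 gained a call for a smaller heat response under each of the 3 scalings. Members called higher with the siRNA after heat numbered 0 to 1 when single libraries were left out.

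Directions that reversed were of members that had not passed the test, apart from Stip1 in the interaction (-0.033, quantile normalization). With heat under control siRNA, Cacybp was at -0.017 (same summed FPKM) and ran from -0.17 to 0.28 as single libraries were left out. Ahsa2 was at 0.12 (median-of-ratios), 0.094 (quantile) and 0.059 (replicate block), and ran from -0.16 to 0.045 with single libraries left out. Cdc37 was at 0.18 (median-of-ratios) and 0.081 (quantile), and ran from -0.15 to 0.10. Fkbp4 was at 0.18 (median-of-ratios) and 0.012 (replicate block), and ran from -0.18 to 0.12. Fkbp4 was at -0.19 with heat under YAP/TAZ siRNA and -0.032 in the interaction with quantile normalization. The Fkbp4 interaction was called higher without unheated control replicate 1 (0.43, limma adjusted p = 0.049). In the added comparison, Hsp90ab1 was at -0.050 (same summed FPKM) and -0.36 (quantile), and Hsp90aa1 at 0.053 (median-of-ratios) and from -0.032 to 0.026 with single libraries left out. Against Hsp90ab1 alone, the siRNA difference of the log2 ratio was -0.010 for Ahsa1, -0.050 for Cacybp, 0.11 for Stip1, 0.12 for Ptges3 and 0.18 for Fkbp4, and the heat difference for Chordc1 was -0.062. The cause of these changes was not tested.

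Whether the replicate numbers pair the libraries was not settled. Deviations from the group means correlated over 0.1 in 3 of 15 same-number pairs and in 2 of 30 other-number pairs. The median correlations were 0.0096 and -0.017, and 5 of 11 libraries correlated best with their own number. With the replicate block 1 member, Cdc37, was called higher with the siRNA after heat (0.24, adjusted p = 0.048), Ahsa2 (0.42) and Fkbp4 (0.28) were called higher with heat under YAP/TAZ siRNA, and the interaction of Cacybp lost its call (0.45, adjusted p = 0.068). Heated control cells have 2 libraries, and leaving out 1 assumes that the lone library varies like the other groups.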
